A study of Homo sapiens with 6 samples.

Results

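The B7 family ligands are cell surface proteins that T cells read alongside antigen. Here they are represented by 7 genes (CD80, CD86, ICOSLG, CD274, PDCD1LG2, CD276 and VTCN1), taken as every probe that carries one of these gene names on a whole genome expression array. The rule gave 12 probes of the 41000 on the array. The family was selected on the measured difference of CD86 between the groups in this same comparison, and its other members were then taken by name. The members' differences between the groups are therefore given as a description, with no p-value, and support nothing further. How many of them the fit across all probes called is given only beside the share it called over the whole array.

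RH36 is an established human cell line of embryonal rhabdomyosarcoma, a childhood tumour of the skeletal muscle lineage, and lacks the PAX3/FOXO1 translocation. The cells were transiently transfected either with pre-miR-27a, a precursor molecule that raises miR-27a (n = 3), or with a negative pre-control (n = 3), and the RNA of each sample was labelled with Cy3 and hybridized to its own array. The sample labels give 10 nM of precursor, testing for overexpression after 24 hours and, for the pre-miR-27a arrays, analysis at 48 hours. The labels of the pre-control arrays give no time of analysis. If the time differed between the groups, its effect cannot be told apart from that of the transfection. The methods of the study give a higher concentration and another transfection reagent for RH36, and which of them applied to the arrays was not settled here. All samples come from a single cell line, the labels call them biological replicates, and no measurement of miR-27a itself was analysed here.

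Several B7 ligands act through receptors of the CD28 family on T cells. CD80 and CD86 on antigen presenting cells bind CD28, which helps to activate the T cell, and CTLA4, which restrains it. ICOSLG binds ICOS, another activating receptor. CD274 (PD-L1) and PDCD1LG2 (PD-L2) bind the inhibitory receptor PDCD1 (PD-1), and tumour cells can carry CD274 on their surface. CD276 (B7-H3) and VTCN1 (B7-H4) are further relatives, and CD276 is found on many solid tumours of childhood, rhabdomyosarcoma among them.

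Both arms of the miR-27a hairpin and the closest relative of miR-27a-3p are printed for orientation. The study names the transfected molecule as a precursor of miR-27a. Whether it also delivered the miR-27a-5p arm was not examined, and miR-27b-3p was not transfected. The sequences come from RefSeq (GRCh38.p14), each 5′ to 3′, with the seed (bases 2 to 8, the stretch that pairs with targets) in capitals.
hsa-miR-27a-3p: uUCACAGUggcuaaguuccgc
hsa-miR-27b-3p: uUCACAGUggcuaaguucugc
hsa-miR-27a-5p: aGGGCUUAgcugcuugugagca
The seed of miR-27a-3p is carried by 3 of the 2370 mature names in the RefSeq table, and miR-27b-3p differs from miR-27a-3p at 1 position, position 19 from the 5′ end. The miR-27a-5p arm has another seed. Transcript sequences of the members were not used here, so whether they hold matches to either seed was not examined.

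Each array had 43376 spots other than controls. Slide 1 held the 3 pre-control arrays and slide 2 the others, and the effect of the slide cannot be told apart from that of the transfection. Around the spots, the median background was 74.5 to 76 intensity units on slide 1 and 52.5 to 53 on slide 2, and 69.9% to 73.9% of spots were well above background on pre-control arrays against 74.1% to 78.0% on pre-miR-27a arrays. This difference moves with every comparison below, and its part in them was not tested. Of the myogenic markers, 5 of 5 tested (MYOD1, MYOG, DES, CDH15 and CHRNA1) were well above background on every array. Of 17 leukocyte markers tested, 7 to 8 were well above background on each pre-miR-27a array and 7 on each pre-control array, with CD14, CD3E, CD68, CD83, ITGAM, ITGAX and TYROBP so on all 6 arrays. Another 9 (PTPRC, HLA-DRA, CD74, CD3D, MS4A1, AIF1, CD1C, CSF1R and LYZ) were well above background on no array. The summed intensity of the 17 markers was 3558 to 4422 on pre-control arrays, against 2327 to 3547 on those of pre-miR-27a. CD83 made up most of it, and without CD83 the sums were 780.5 to 1011 and 540.9 to 572.7.

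Signals are given as log2 of the processed intensity after quantile normalization, and a difference is the mean of pre-miR-27a arrays minus the mean of pre-control arrays, with the standard error from limma. Levels of different probes are not compared with each other, since probes differ in how brightly they report. A signal well above background on all 6 arrays was given by 5 of the 12 probes, on some arrays by 3 and on none by 4. The 5 were a probe each for CD86, ICOSLG and CD274 and both probes of CD276. CD80, PDCD1LG2 and VTCN1 had no probe of this kind. None of the member spots was saturated or flagged as an outlier (0 of each), and 6 of them were flagged as not found by the image analysis. In bulk RNA, a change in the share of cells that express a gene cannot be told apart from a change in the level per cell.

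**Figure D1:**
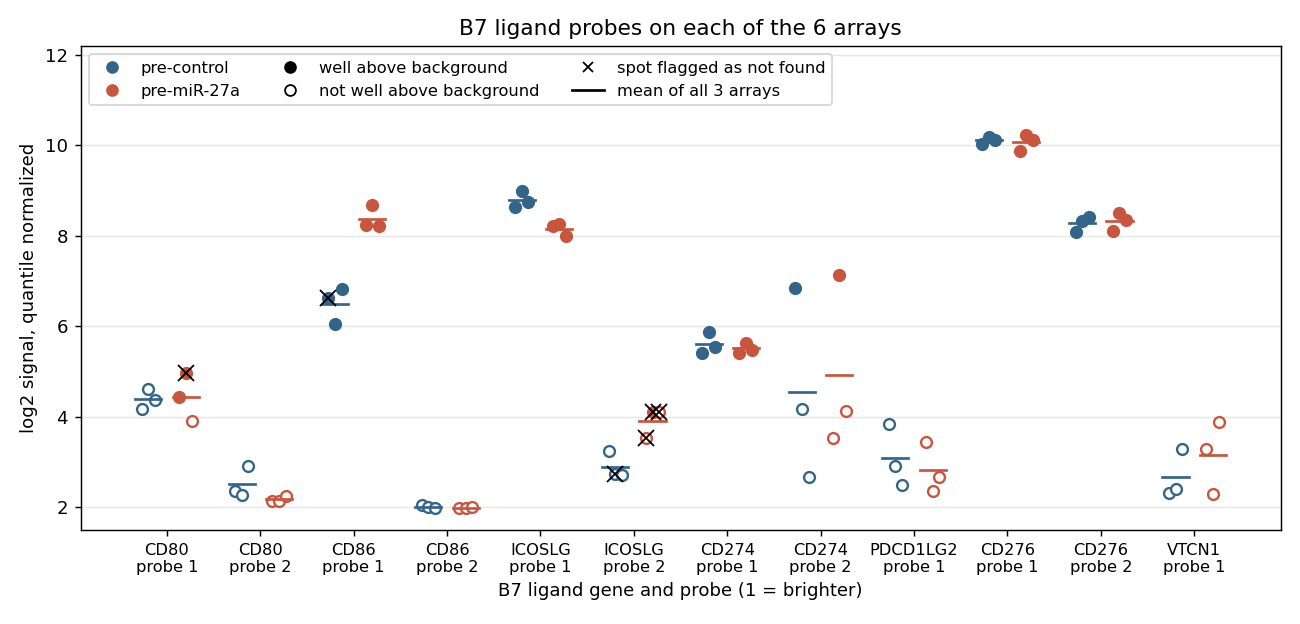
Quantile normalized log2 signal (vertical axis) of the 12 probes for the 7 B7 ligand genes (horizontal axis) on 3 pre-control and 3 pre-miR-27a arrays, with filled points for spots well above background, open points for the others, crosses for spots flagged as not found and lines for the mean of all 3 arrays. The brighter CD86 probe sits between 6.06 and 6.83 on pre-control arrays and between 8.21 and 8.68 on pre-miR-27a arrays, whereas the other CD86 probe stays near 2 on all of them.

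CD86 was higher on pre-miR-27a arrays by its brighter probe and stayed at background by the other. The brighter probe (A_24_P131589, NM_006889) lies at chr3:123321936-123321995 on the plus strand (hg18). Its log2 signals were 6.63, 6.06 and 6.83 on pre-control arrays 1, 2 and 3. On the pre-miR-27a arrays they were 8.25, 8.68 and 8.21. The groups did not overlap, and the gap between them was larger than the spread within either. The pre-control spot of replicate 1 was flagged as not found although it was well above background, and the fit left it out. The pre-control mean was then 6.44 ± 0.55 (SD, n = 2), against a pre-miR-27a mean of 8.38 ± 0.26 (SD, n = 3). The difference was 1.93 (standard error 0.29), a 3.82-fold higher signal, and only 0.148% of all probes had a larger one. With the flagged spot kept it was 1.87.

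The intensities before any normalization between arrays were 112, 61.5 and 128 units for this CD86 probe on pre-control arrays, with errors of 12.7, 8.68 and 13.8 units from the image analysis. On pre-miR-27a arrays they were 304, 403 and 280 units, with errors of 30.5, 40.3 and 28.2. The groups did not overlap on this scale either, and the errors cover the single spots, not the variation between samples or slides. The raw mean signal of the spot, before background subtraction, was 220 to 309 units against a local background of 78 to 79 on pre-control arrays, and 395 to 525 units against 52 to 55 on pre-miR-27a arrays.

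The other CD86 probe (A_23_P109988), 11072 bases upstream at chr3:123310864-123310923, is assigned to the same transcript in the array annotation. It had pre-control signals of 1.98 to 2.05 and pre-miR-27a signals of 1.98 to 2.02. None of these was well above background, so it has no measured level in either group and gives no fold. The mean of both probes, 0.96, is accordingly lower than the difference of the brighter one. No annotation of the array's genome build was used here, so the exons that the probes lie in are not given.

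ICOSLG was lower on pre-miR-27a arrays by its brighter probe (A_23_P6272, NM_015259), at chr21:44472409-44472468 on the minus strand (hg18). Its log2 signals were 8.64, 8.99 and 8.74 on pre-control arrays. On pre-miR-27a arrays they were 8.22, 8.26 and 8.00. The groups did not overlap, and the spread within each was smaller than the distance between their means, which were 8.79 ± 0.18 (SD, n = 3) and 8.16 ± 0.14 (SD, n = 3). The difference was −0.63 (standard error 0.13), that is, a signal 1.55-fold higher on pre-control arrays, and 5.03% of all probes had a lower difference. Processed intensities were 441, 474 and 450 units for pre-control and 298, 299 and 240 units for pre-miR-27a.

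A dim ICOSLG probe (A_23_P317667), 7314 bases away at chr21:44479723-44479782, had pre-control signals of 2.71 to 3.24 and pre-miR-27a signals of 3.54 to 4.11. The image analysis found its spot on only 2 of the 6 arrays, and it was the single member probe removed by the filter. It was well above background on 1 pre-miR-27a array (replicate 2) and on no pre-control array. Its pre-miR-27a mean lay below the mean of the lowest signals that counted as well above background on each pre-control array, so no fold is given. The brighter and the dim ICOSLG probe thus stood in opposite order, with the dim one at or near background.

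CD274, the PD-1 ligand PD-L1, did not separate the groups. Its steadier probe (A_23_P256487), at chr9:5460098-5460157, was at 5.41, 5.89 and 5.55 on pre-control arrays. On pre-miR-27a arrays it was at 5.42, 5.63 and 5.49. The values of both groups overlapped, and the difference was −0.10 (standard error 0.15), although the probe was well above background on all 6 arrays. The range of its alternatives with every array, −0.18 to 0.07, held both signs, and the mean of both CD274 probes was at 0.14.

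The second CD274 probe (A_23_P338479, NM_014143), 1788 bases away at chr9:5458310-5458369, behaved differently. It was at 6.84, 4.17 and 2.67 on pre-control arrays. On pre-miR-27a arrays it was at 3.54, 7.14 and 4.13. A single array in each group stood far above the others, pre-control replicate 1 and pre-miR-27a replicate 2, and these were also the only arrays on which the probe was well above background. Their processed intensities were 129 and 132 units, against 7.30 to 16.7 units on the other arrays. On the steadier CD274 probe, pre-control replicate 1 had instead the lowest value of its group. The difference was 0.38 with a standard error of 1.39, and it moved between −0.73 and 1.52 when single arrays were left out, so it gives no usable comparison of the groups.

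PDCD1LG2, the other PD-1 ligand and the direct neighbour of CD274 in the RefSeq gene order, has 1 probe (A_23_P94412). It was at 3.84, 2.92 and 2.49 on pre-control arrays and at 3.45, 2.37 and 2.67 on pre-miR-27a arrays. No array was well above background, and both groups covered much the same range.

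CD276 was the only member with both of its probes well above background on all 6 arrays. Its brighter probe (A_23_P54313, NM_001024736), at chr15:71792513-71792572, was at 10.03, 10.20 and 10.12 on pre-control arrays. On pre-miR-27a arrays it was at 9.87, 10.24 and 10.12. The groups overlapped, and the difference was −0.04 (standard error 0.12). The second probe (A_23_P393598, NM_025240), whose annotated position starts at 71787817, had pre-control signals of 8.09 to 8.41 and pre-miR-27a signals of 8.10 to 8.51. Its difference was 0.04 (standard error 0.15). Both probes of CD276 therefore gave values of under a standard error in size.

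CD80, which shares its receptors with CD86, was at the edge of detection. Its brighter probe (A_24_P320033, NM_005191), at chr3:120726374-120726433, was at 4.17, 4.62 and 4.38 on pre-control arrays. On pre-miR-27a arrays it was at 4.44, 4.97 and 3.92. It was well above background on no pre-control array and on 2 pre-miR-27a arrays, on one of which its spot was flagged as not found. The difference was −0.21 without that spot (standard error 0.22) and 0.05 with it, and no fold is given because the pre-miR-27a mean, 4.44 with every spot kept, lay below 4.67, the mean of the lowest signals counted as well above background on each pre-control array. The second CD80 probe (A_23_P155632) was well above background on no array, at 2.27 to 2.92 and 2.14 to 2.25. Its groups did not overlap, but both lay below detection.

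VTCN1 has 1 probe (A_23_P518, NM_024626), and it was well above background on no array. It was at 2.32, 2.42 and 3.29 on pre-control arrays and at 3.28, 2.30 and 3.88 on pre-miR-27a arrays. The groups overlapped.

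Across the family, 4 of the 11 probes that passed the filter were higher and 7 lower on pre-miR-27a arrays. The limma fit across all probes, at a threshold of 0.05 after Benjamini-Hochberg adjustment, called 2 of the 11, beside 7.83% of all 36469 probes. These were the brighter probes of CD86, called higher beside 3.95% of all probes, and of ICOSLG, called lower beside 3.88%. In the fit blocked on the replicate number, the CD86 difference was 2.00 (standard error 0.40) and fell outside the threshold. The flagged pre-control spot of replicate 1 was left out there too, so this difference rests on replicates 2 and 3 alone. That fit called 2641 higher and 2780 lower of all 36469 probes. The groups of arrays did not overlap for 3 of the 11 probes, beside 32.5% of all probes. Nothing is read from these counts, since the comparison is the one around which the family was gathered. Of the probes that were not called, the one next in the order of the fit was the CD80 probe that lay below detection. CD80 lay too near background to show whether it moved with CD86, with which it shares its receptors. Of the ligands of PDCD1, CD274 was measured and its groups overlapped, and PDCD1LG2 was not well above background.

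**Figure D2:**
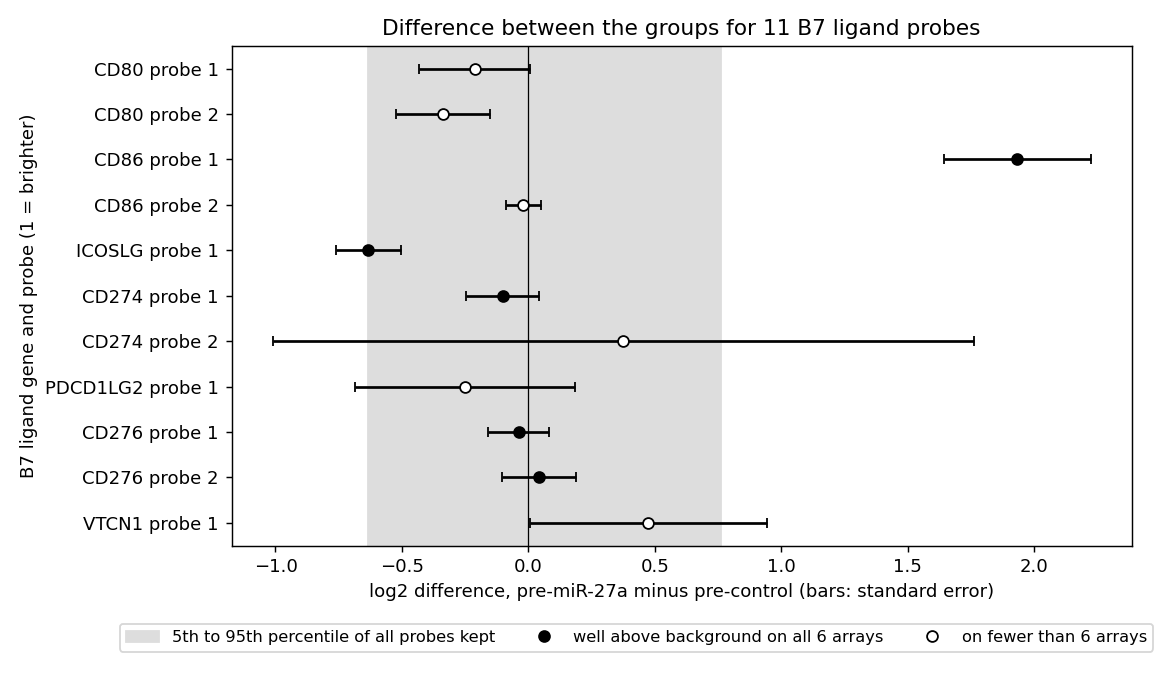
Log2 difference, pre-miR-27a minus pre-control (horizontal axis), with its standard error for the 11 B7 ligand probes that passed the filter (vertical axis), filled where the probe was well above background on all 6 arrays. The brighter CD86 probe at 1.93 lies outside the shaded range from the 5th to the 95th percentile of all probes (−0.64 to 0.76), the brighter ICOSLG probe at −0.63 lies at its lower edge, and the second CD274 probe has the widest standard error, 1.39.

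The size of the CD86 difference depended on the background correction but kept its sign. Modelling the background together with the spot signal (normexp, offset 50) gave 1.48 (standard error 0.19). Without pre-control replicate 2, the lowest CD86 value, it was 1.55, and without pre-control replicate 3 it was 2.32. ICOSLG stayed between −0.71 and −0.53 with any single array left out. Neither gene changed sign in these settings, which for CD86 and ICOSLG alike were the 7 alternatives with every array and the 6 that left out an array.

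**Figure D3:**
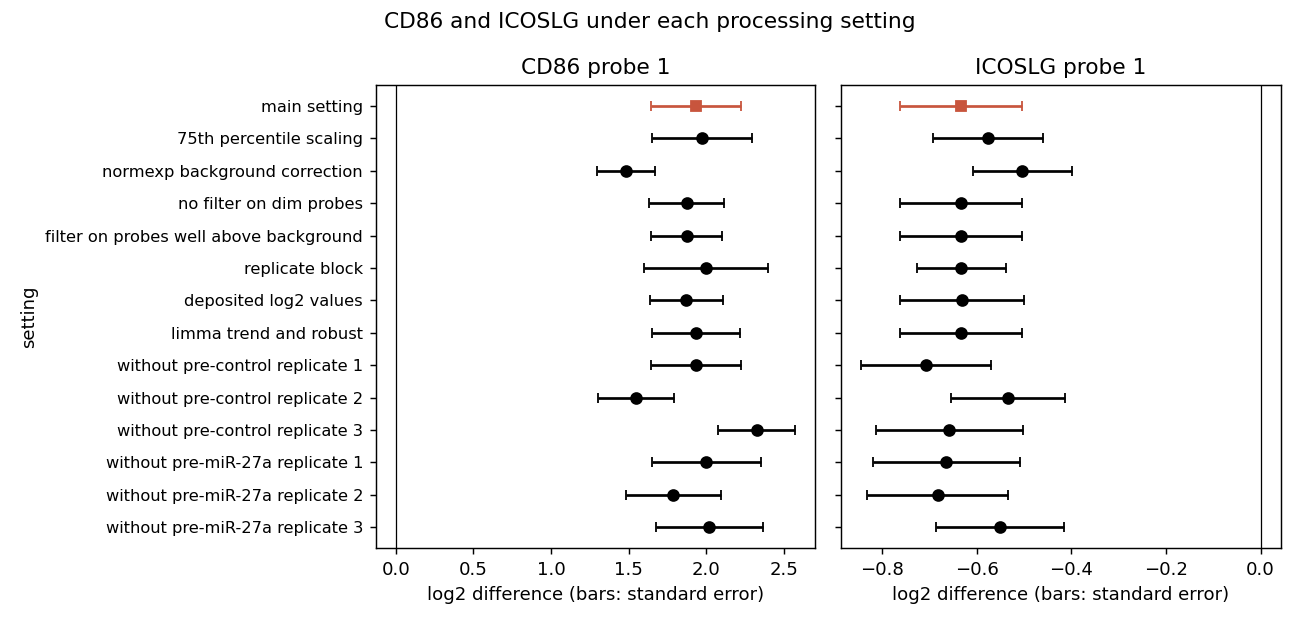
Log2 difference with its standard error (horizontal axis) for the brighter probes of CD86 (left) and ICOSLG (right) under the main setting, 7 alternatives and with each array left out (vertical axis). CD86 lies between 1.48 and 2.32 and ICOSLG between −0.71 and −0.50.

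The 6 nearest protein coding genes around CD86 in the RefSeq order, ILDR1 and CASR among them, were all tested, and limma called 0 of them, with 0 at an unadjusted p under 0.05. Their differences ranged from −0.13 to 0.54. For the 6 neighbours of ICOSLG, limma likewise called 0, with 2 at an unadjusted p under 0.05 and a range of −0.54 to 0.13. Over all genes tested, 6.65% were called, and 3797 of 16612 were at an unadjusted p under 0.05. Nothing is read from counts over 6 genes. The neighbours were looked up after the values of CD86 and ICOSLG had been seen.

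The probes whose values ran most closely with the brighter CD86 probe over the 6 arrays were those of SLC38A2, DDX24, LIFR, HELB and KAT6B, with Pearson correlations of 0.998, 0.997, 0.996, 0.995 and 0.993. They were the highest among 19242 probes well above background on all 6 arrays, of which 472 had a correlation above 0.95. Among these 5, the differences of LIFR (1.24) and KAT6B (1.04) were the largest. For the brighter CD276 probe the closest were TTC7B, NUCB2, SLC19A2, PSMA2 and PDP2, with correlations of 0.995, 0.994, 0.994, 0.993 and 0.991, and 50 of 19240 probes lay above 0.95. These are descriptions over 6 points that share slide and group.

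The genes around the ligands were followed in 4 lists with 68 genes, each gene by its brightest probe: the receptors, the B7 relatives and butyrophilins, other immune surface ligands, and regulators of B7 ligands. Of the 64 genes tested, limma called 2 higher and 2 lower, which is 6.25% beside 6.65% of all 16612 genes, of which 2.61% were higher and 4.04% lower. When any probe of a gene counted, 5 genes had a probe called higher and 2 a probe called lower, beside 10.4% of all genes in either direction. Their median difference was −0.02 against −0.04 over all genes, and 30 were higher and 34 lower. In the fit blocked on the replicate number, 6 were called higher and 3 lower. All 4 of the first calls were among these 9. Over the whole array, that fit called 2641 higher and 2780 lower of 36469 probes, against 1440 and 1416 in the main fit. When 1 array was left out, 0 to 1 gene of the lists was called in each direction, and only without pre-control replicate 1 was any called. Most of these fits called 0 probes over the whole array.

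Of the 8 receptor genes tested, 1 was called, PDCD1, the receptor of CD274 and PDCD1LG2, which is known from activated T cells. Its single tested probe was at 7.19, 7.38 and 7.07 on pre-control arrays. On pre-miR-27a arrays it was at 6.31, 6.37 and 6.20. All arrays were well above background and the groups did not overlap. PDCD1 fell by 0.92 (log2, standard error 0.11), a 1.89-fold change with an adjusted p of 0.0185 from limma, and was called in all 7 alternatives with every array. With normexp background correction it fell by 0.56. It was called in 1 of the 6 fits with an array left out, and the 3 other called genes of these lists in 0. Without pre-control replicate 2, or without any 1 of the pre-miR-27a arrays, the fit called 0 of all 36469 probes. Those fits therefore say nothing about single genes. Among the others, CD28 was at −0.33 (adjusted p = 0.341) and CTLA4 was well above background on no array, while ICOS was not tested because its spot was found on too few arrays. The median of the list was −0.25.

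Among the B7 relatives and butyrophilins, a family with the same extracellular fold, limma called 0 of 13 by the brightest probe, beside 6.65% of all genes. At an unadjusted p under 0.05 were 6 of the 13, beside 3797 of all 16612 genes. BTN3A3 was well above background on every pre-miR-27a array and on no pre-control array, and was not called (adjusted p = 0.0710). Its difference was 0.50 (standard error 0.12). The lowest signals counted as well above background were 4.37 to 5.01 on pre-control arrays, against 3.61 to 4.27 on pre-miR-27a arrays. The part of this gap in the detection of BTN3A3 was not tested. BTNL2 was at −0.53 (adjusted p = 0.0816) and VSIR, an inhibitory B7 relative, at −0.24 (adjusted p = 0.297). A second BTNL9 probe was called higher (adjusted p = 0.0181), but it was well above background on only 1 array, and the brighter BTNL9 probe was at 0.29. The list had a median of 0.08.

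Of 20 other immune surface ligands, 2 were called, both higher. NECTIN3, an adhesion molecule of the nectin family, had pre-control signals of 9.98, 9.96 and 9.99 and pre-miR-27a signals of 10.45, 10.78 and 10.70. It rose by 0.67 (standard error 0.11, adjusted p = 0.0266 from limma), while its other probes were at −0.15 and 0.10 and were not called. ICAM1, which binds leukocyte integrins, was called at an adjusted p of 0.0403 but was well above background on no array, so no fold is given. ICAM1 was called in 2 of the 5 alternatives with every array that tested it, and its difference was −0.0028 with 75th percentile scaling. CD47 at −0.04, PVR at −0.03 and CD58 at −0.21 were not called. The median of the list was −0.03.

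The 23 regulators of B7 ligands included the interferon gamma receptor, JAK and STAT genes, NF-kB subunits, and genes that act on the ligands as proteins. Limma called 1, IRF2, a factor that binds interferon response elements. Its brightest probe fell by 0.68 (standard error 0.13, adjusted p = 0.0391), from values of 7.85 to 8.15 to values of 7.24 to 7.54, while another probe of the gene, at 0.04, was not. STAT3 was at 0.65 (adjusted p = 0.0589) by its brightest probe. A dimmer STAT3 probe was at 0.80 (adjusted p = 0.0378) and the remaining one at −0.20. JAK1 was at 0.02 by its brightest probe and at 0.76 (adjusted p = 0.0424) by another. IRF1 at 0.16, NFKB1 at 0.17 and RELA at −0.11 were not called.

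MARCHF1 and MARCHF8 encode ubiquitin ligases that remove CD86 from the cell surface. MARCHF8 was well above background on every pre-miR-27a array and on no pre-control array (adjusted p = 0.0935), and MARCHF1 on no array (adjusted p = 0.0933). The MARCHF8 difference was 0.86 (standard error 0.24), and the lower detection level of the pre-miR-27a arrays applies to it as to BTN3A3. CMTM6, which stabilizes CD274 protein, was at 0.18 (adjusted p = 0.245). None of these 3 genes was called.

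Among the leukocyte markers, 4 of 17 were called and all 4 were lower, beside 6.65% of all genes called and 4.04% called lower. CD14, a monocyte marker, was at −0.71 (adjusted p = 0.0223), TYROBP at −0.56 (adjusted p = 0.0402, with the replicate block 0.0522) and CD3E at −0.44 (adjusted p = 0.0348), and CSF1R was well above background on no array. With normexp, CD3E was at −0.29, TYROBP at −0.30 and CSF1R had the opposite sign. CD14 was called in 7 of the 7 alternatives with every array, CD3E and TYROBP in 5 of 7 and CSF1R in 1 of 6. All 4 were called in 0 of the fits with an array left out, most of which called 0 probes over the whole array. The median of the list was −0.41, with 9 of its 17 genes well above background on no array. Of the 5 myogenic markers, limma called 0 by the brightest probe, with 3 at an unadjusted p under 0.05 and a median of −0.35. Another probe of CHRNA1 was called higher, while its brightest probe was at −0.15. Over all genes, 3797 of 16612 were at an unadjusted p under 0.05.

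**Figure D4:**
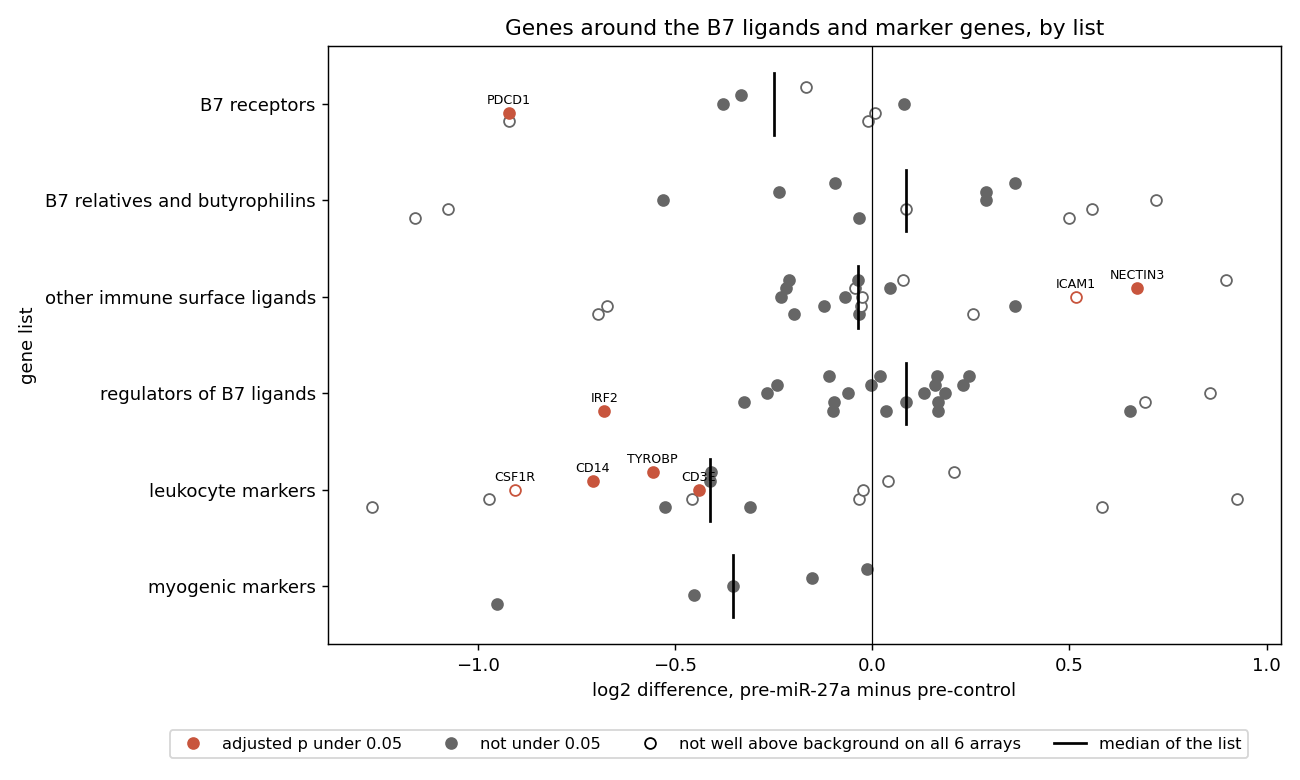
Log2 difference, pre-miR-27a minus pre-control (horizontal axis), of each tested gene by its brightest probe in 6 lists (vertical axis), with called genes in red and named, open points for probes not well above background on all 6 arrays and a line at the median of each list. PDCD1 at −0.92 and IRF2 at −0.68 lie to the left and NECTIN3 at 0.67 to the right, and the medians of the lists lie between −0.41 and 0.09.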

How the data were processed

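The deposited array files hold intensities from Agilent Feature Extraction 10.5.1.1: a processed intensity, background corrected within the array, mean and background intensities, and quality flags. The authors also deposited log2 values normalized between arrays. Set against the signals computed here, these were quantile normalized, and the 2 differed by 0.00401 in the median and at most by 1.16. Its median was 9.18, 9.22 and 9.16 on pre-control arrays and 9.13, 9.13 and 9.16 on pre-miR-27a arrays.

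Control spots were removed, log2 processed intensities were quantile normalized, spots with a found flag of 0 were set to missing, replicate spots were averaged, and probes with more than 1 missing array were left out. The groups were compared with limma 3.58.1 in R 4.3.3, and p-values were adjusted over all probes by Benjamini-Hochberg. The fit was tested on simulated data. The study used SAM, which its results name as paired. Limma was used here because it gives a standard error for each probe. The main fit did not pair the arrays. Blocked on the replicate number, the fit called 2641 probes higher and 2780 lower, against 1440 and 1416 in the main fit. With 3 arrays against 3, an exact permutation test cannot go below 0.1, two-sided. The number of arrays limits the precision, with a median standard error of 0.14.

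Members are probes with the gene names given, and probe 1 is the brighter one. Of the listed genes, all that were called by their brightest probe are named, others were named as examples after their values were seen, and the 5 probes most correlated with CD86 and with CD276 are given. Array names were matched to current symbols through RefSeq (GRCh38.p14), for 25260 probes and 16612 genes. Probe positions are those of the files (hg18). The members and gene lists were chosen with earlier results of these data known.

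The replicate numbers come from the labels. Deviations from the group means correlated at 0.396, 0.456 and 0.409 for arrays with the same number, across 31717 probes, and at −0.266 to −0.123 for different numbers, which was read as pairing by number. The alternatives were 75th percentile scaling, normexp, the replicate block, no filter, a filter that kept probes well above background, the deposited log2 values, a variance trend with robust estimation, other choices of probe or flag, and leaving out each array.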

Additional observations from a re-analysis of the deposited data

How the results depend on the processing

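The differences of the brighter probes of CD86, ICOSLG, CD274 and CD276 moved by less than the spread between replicates in all settings except these. CD86 was at 1.48 with normexp. As the mean of both probes, which by construction includes the dim one, CD86 was at 0.96 and CD274 at 0.14. With single arrays left out, CD86 ranged from 1.55 to 2.32, ICOSLG from −0.71 to −0.53, CD274 from −0.21 to 0.03 and CD276 from −0.12 to 0.07. Of the member probes, limma called 2, with the replicate block 1 (ICOSLG), and with arrays left out 0 to 1, the 1 being CD86 without pre-control replicate 1. Over all 36469 probes, the replicate block called 2641 higher and 2780 lower. With an array left out, 2 member probes were at an unadjusted p under 0.05 in each fit, beside 7178 to 8636 of all 36469 probes. Nothing is read from this count either. The 75th percentile scaling called 3, among them a CD80 probe below detection at −1.19, and over all probes it called 1275 higher and 1981 lower, against 1440 and 1416. Of the pathway genes, 2 were called higher, 6 with the replicate block (beside its calls over all probes given above), 5 when any probe counted, and 0 to 1 with arrays left out. Those called lower numbered 2, and 0 to 1 with arrays left out. The pathway calls with arrays left out came without pre-control replicate 1. In these fits, 12 to 16 of the 64 pathway genes were at an unadjusted p under 0.05, beside the share of all probes given above. Over all probes, leaving out an array called 745 higher and 531 lower without pre-control replicate 1, 50 and 31 without pre-control replicate 3, and 0 otherwise, where 7178 to 7686 were at an unadjusted p under 0.05. By the flag for a positive and significant signal, 7 member probes were detected on all 6 arrays, against 5. Where no cause is given, the cause was not tested. Signal near background limits CD80, PDCD1LG2 and VTCN1, which have no measured level on most arrays.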
